A study of Mus musculus with 12 samples.

Results

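Potassium, voltage-gated calcium and voltage-gated sodium channel genes were taken as all genes with a probe whose name begins with Kcn, with Cacna, Cacnb or Cacng, or with Scn and a digit, whatever their level. This rule took 195 probes of 135 genes, out of 55681 probes of 36317 genes on the array. They comprise 30 pore-forming subunits of voltage-gated potassium (Kv) channels, 10 silent Kv subunits, 15 inward rectifiers, 14 two-pore-domain channels, 8 channels opened by calcium or sodium ions and 16 auxiliary potassium channel subunits. The calcium channel genes are 10 pore subunits, 4 α2δ subunits, 4 β subunits and 8 γ subunits, and the sodium channel genes are 10 pore subunits and 4 β subunits. The remaining 2 names are Kcnrg, which encodes a regulator of potassium channel assembly, and Kcnq1ot1, a noncoding RNA transcribed from the opposite strand of Kcnq1.

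Expression was measured with 1-colour Agilent arrays in 3 fractions of spermatogonia and in whole testes, with 3 arrays each, all from C57BL/6 mice aged 10 to 11 weeks that received no treatment named in the labels. The GFRα1+ fraction was the EGFP+ cells of GFRα1-EGFP knock-in mice, in which EGFP is made from the Gfra1 locus, and each sample came from 1 mouse. The NGN3+ fraction was the GFP+/KIT- cells of Ngn3-EGFP transgenic mice, pooled from 2 mice per sample, and the KIT+ fraction was the GFP+/KIT+ cells of the same line, from 1 mouse per sample. In that line GFP outlasts the expression of Ngn3. Whole testes were those of wild-type littermates of the knock-in mice, so GFRα1+ and NGN3+ cells differ in reporter line as well as in cell type. About 10000 to 20000 sorted cells, or 500000 cells of whole testes, were used for an array.

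Spermatogonia are the mitotic germ cells at the base of the seminiferous tubule. GFRα1+ cells include the stem cells, NGN3+ cells are their progeny, which are primed to differentiate and can still return to the stem cell state, and KIT+ cells are differentiating spermatogonia, so that the fractions form a series of successive stages. Channel genes encode pores that let a chosen ion cross the membrane, and partners that set where and when those pores open: Kv channels and inward rectifiers carry potassium, silent Kv subunits form no channel alone and alter the Kv2 pores they join, and β, α2δ and γ subunits attend calcium and sodium channels. In sperm, alkaline-sensitive potassium and calcium channels are needed for hyperactivated swimming.

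Every value below is a level on the log2 scale in which 0 is the 75th percentile of the array, so levels of different genes, which have different probes, are not set against each other. A gene was called detected in a group whose 3 arrays all had it well above background. Of all probes, 50.1% to 65.1% were well above background on an array, no spot was saturated, and arrays of a group correlated with r of 0.983 to 0.991 over genes. Gfra1 had a mean level of 1.65 in GFRα1+ cells, -1.22 in NGN3+ cells, -3.38 in KIT+ cells and -4.07 in whole testes, Neurog3 (which encodes NGN3) was highest in NGN3+ cells at 5.23, and Kit was highest in KIT+ cells at 4.55. Markers of other testis cells were also present. The summed level of 20 spermatid marker genes was 40.2 to 78.9 in GFRα1+ cells, 1466 to 1833 in NGN3+ cells, 1778 to 2289 in KIT+ cells and 7040 to 8497 in whole testes, in multiples of each array's 75th percentile. The number of arrays, 3 in a group, limits the precision. In bulk samples, fewer cells of a type and less RNA per cell cannot be told apart.

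Of the 135 channel genes, 63 were detected in GFRα1+ cells, 82 in NGN3+ cells, 75 in KIT+ cells and 77 in whole testes. These are 46.7%, 60.7%, 55.6% and 57.0% of the channel genes, beside 54.0%, 65.0%, 61.8% and 61.7% of all genes in the same groups. In all 4 groups 43 were detected and in none of them 34, so that 101 were detected somewhere. Another 13 were detected in NGN3+ cells, KIT+ cells and whole testes but not in GFRα1+ cells, 12 in whole testes alone, 10 in the 3 sorted fractions and not in whole testes, and 4 (Kcna1, Kcnj15, Scn2b and Scn4b) in GFRα1+ and NGN3+ cells alone. The undetected genes were spread over the classes, with 9 of 30 Kv pore subunits, 6 of 15 inward rectifiers, 5 of 16 auxiliary potassium channel subunits and 2 of 10 sodium channel pore subunits detected in no group.

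Between NGN3+ and GFRα1+ cells, which are the first step of the series, channel genes moved in both directions and by up to 38.6-fold. A gene was tested where it was detected in at least 1 of the 2 groups, and called at a limma adjusted p under 0.05 over all genes tested. In NGN3+ cells 27 of 85 channel genes tested were higher and 24 lower, and 54 had groups that did not overlap. Among the 23780 genes tested in all, 56.3% were called (20.1% higher and 36.1% lower) and 62.6% did not overlap, so the share of channel genes called was near that of all genes. The median log2 ratio was 0.06 for channel genes, or 0.00 with the 12 genes that were above background on no array of 1 group taken at their bound (9 genes) or, where none could be given, at 0 (3 genes), and -0.19 for all genes tested. These counts moved with the setting, and so did the shares of all genes called in each direction. Arrays with the same scan date in the file headers were taken as 1 slide, since no slide number was read. With the array slide as a block 23 were higher and 14 lower, beside 38.9% of all genes called (15.6% higher and 23.3% lower). On the slide that holds the NGN3+ arrays and 1 of the 3 GFRα1+ arrays, where that lone array was assumed to vary like the other groups, 22 were higher and 15 lower (35.9% of all genes called). Without NGN3+ array 2, 24 were higher and 15 lower, beside 42.7% of all genes called (17.4% higher and 25.4% lower). Scaling moved the balance of higher to lower calls. It was 31 to 17 when the percentile was taken over probes detected on every array, beside 24.5% higher and 25.4% lower among all genes. After another background correction (normexp) it was 20 to 37, beside 15.7% higher and 42.2% lower among all genes.

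Between KIT+ and NGN3+ cells, the second step, more channel genes were lower than higher in KIT+ cells. Of 87 tested, 10 were higher and 28 lower, and 49 did not overlap, beside 34.4% called (17.5% higher and 16.9% lower) and 50.3% not overlapping among 24097 genes tested. The median log2 ratio was -0.12, beside 0.05 for all genes tested. These 6 arrays share a scan date, taken as 1 slide, and come from 1 reporter line. Over both steps, 23 of 84 were higher and 36 lower in KIT+ than in GFRα1+ cells, with a median of -0.11, beside 65.7% called (26.5% higher and 39.2% lower) and a median of -0.15 among 22979 genes tested. Groups did not overlap for 60 of the 84, beside 70.3% of all genes tested.

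By class, the first step had calls in both directions among Kv pore subunits (6 higher and 7 lower of 20 tested), channels opened by calcium or sodium (3 and 2 of 6), auxiliary potassium channel subunits (5 and 2 of 8), inward rectifiers (2 and 2 of 6) and sodium channel pore subunits (2 and 3 of 6). Calls among silent Kv subunits (3 of 8) and calcium channel pore subunits (2 of 8) were all higher in NGN3+ cells, and calls among γ subunits (3 of 5) and sodium channel β subunits (2 of 4) were all lower. Of all genes tested at this step, 20.1% were higher and 36.1% lower, and no class was tested against all genes. At the second step no sodium channel gene and no γ or β subunit of calcium channels was called higher in KIT+ cells. There, 2 of 6 sodium channel pore subunits, 2 of 4 sodium channel β subunits, 2 of 4 γ subunits and 2 of 3 calcium channel β subunits were called lower. Of all genes tested at the second step, 17.5% were higher and 16.9% lower. At the first step γ subunits and sodium channel β subunits had no higher call, and silent Kv subunits no lower call, under any of the 3 other scalings tried, but the numbers called in several classes moved with the scaling. After normexp, 3 calcium channel pore subunits were called higher and 3 lower, 1 silent Kv subunit higher, and 3 Kv pore subunits higher and 10 lower. With the percentile over detected probes, 2 sodium channel pore subunits were higher and 0 lower. Of all genes tested, 15.7% were higher and 42.2% lower after normexp, and 24.5% and 25.4% with that percentile. Class medians moved too, for silent Kv subunits 0.55 here and -0.02 after normexp, and for calcium channel pore subunits 0.32 and -0.23.

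**Figure D1:**
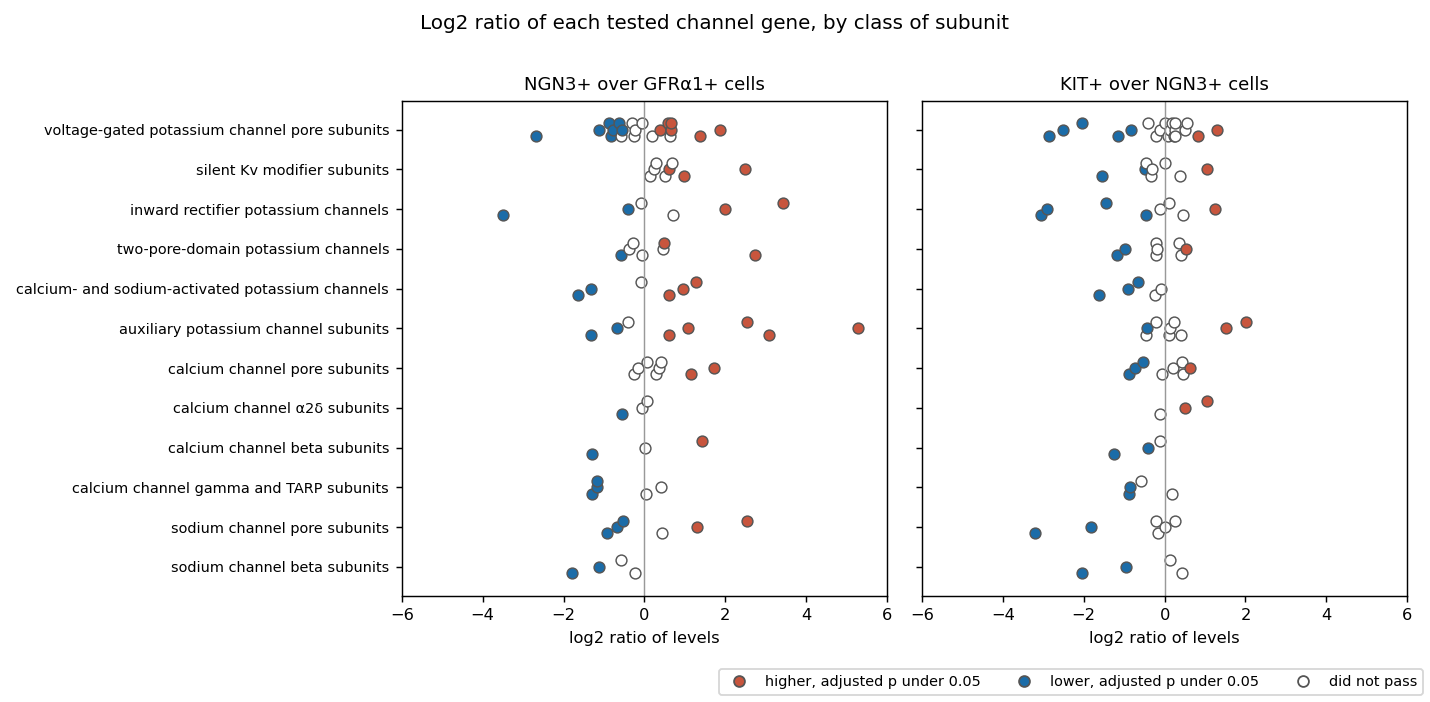
Fitted log2 ratio of each tested channel gene (points) by class of subunit, for NGN3+ over GFRα1+ cells on the left and KIT+ over NGN3+ cells on the right. Red points were called higher and blue points lower at an adjusted p under 0.05, open points did not pass. Ratios ran from -3.50 to 5.27 on the left and from -3.20 to 2.02 on the right, where the blue points outnumber the red.

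Of the channel genes, 9 were called lower at both steps: Kcnj15, Kcnc2, Kcnn4, Kcnh3, Kcnk6, Kcnj10, Cacng7, Scn2b and Scn4b. Of all genes tested, 36.1% were lower at the first step and 16.9% at the second. The share of all genes called at both steps is not given here, so these 9 cannot be set against it. Kcnj15 encodes the inward rectifier Kir4.2. Its levels were -0.19, -0.44 and 0.25 in GFRα1+ cells and -3.30, -3.98 and -3.58 in NGN3+ cells, while none of the KIT+ arrays (-4.97, -5.11 and -5.16) or whole testes arrays (-6.68, -6.47 and -5.65) was above background. The 3 sorted fractions thus did not overlap, and the gene was detected only in the GFRα1+ and NGN3+ fractions. Kcnj15 was 11.3-fold lower in NGN3+ than in GFRα1+ cells (log2 ratio -3.50, SE 0.21, adjusted p = 4.5e-06) and at least 25.1-fold lower in KIT+ than in GFRα1+ cells (adjusted p = 6.52e-07). For a group in which a gene was above background on no array, such a bound sets the mean of the brighter group against, per array, the higher of the gene's own level and the lowest level among probes above background. Here and below, an adjusted p beside a bound tests the fitted log2 ratio, which uses the values below background, and not the bound. GFRα1+ cells were at least 19.4-fold above whole testes for this gene (adjusted p = 2.17e-09).

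Kcnc2, the Kv3.2 subunit of fast-closing potassium channels, had levels of 0.76, 0.69 and 0.64 in GFRα1+ cells, -1.69, -2.25 and -2.03 in NGN3+ cells, -4.19, -5.49 and -3.80 in KIT+ cells (2 of 3 arrays above background) and -1.40, -0.76 and -1.03 in whole testes. No 2 sorted fractions overlapped, and whole testes lay between GFRα1+ and NGN3+ cells. The log2 ratio was -2.69 for NGN3+ over GFRα1+ cells (SE 0.38, adjusted p = 0.0005) and -2.51 for KIT+ over NGN3+ cells (SE 0.38, adjusted p = 0.00125), which together are 36.5-fold. Kcnn4, the calcium-activated channel KCa3.1 that sets the membrane potential of many dividing cells, had levels of -1.53, -1.47 and -1.65 in GFRα1+ cells, -3.47, -3.17 and -2.94 in NGN3+ cells, and was not above background on any KIT+ array. It was 3.13-fold lower in NGN3+ than in GFRα1+ cells (adjusted p = 0.000215) and at least 2.63-fold lower in KIT+ than in NGN3+ cells (adjusted p = 0.000445). In GFRα1+ cells it was 4.74-fold above whole testes, while NGN3+ cells and whole testes overlapped.

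Cacng7 belongs to the γ subunits that act mainly on AMPA-type glutamate receptors. Its levels were 2.10, 2.06 and 2.10 in GFRα1+ cells, 1.07, 0.89 and 0.78 in NGN3+ cells, -0.13, 0.18 and 0.06 in KIT+ cells and -1.88, -1.61 and -1.83 in whole testes. All 4 groups stood apart in that order. The log2 ratios were -1.17 at the first step (SE 0.12, adjusted p = 7.48e-05) and -0.88 at the second (SE 0.12, adjusted p = 0.000716), and 3.86 for GFRα1+ cells over whole testes. Kcnh3, the Kv12.2 pore, and Kcnk6, the two-pore-domain channel TWIK-2, moved mostly at the second step. Kcnh3 had a mean of 1.41 ± 0.07 in GFRα1+ cells, 0.78 ± 0.35 in NGN3+ cells and -1.25 ± 0.23 on KIT+ arrays (SD, n = 3 each), and Kcnk6 had means of 0.86 ± 0.05, 0.28 ± 0.25 and -0.89 ± 0.04 in the same order. Their log2 ratios were -2.04 and -1.17 at the second step (adjusted p = 0.000109 and 0.000295). Their smaller first-step ratios (-0.63 and -0.58) did not pass under 6 and 2 of 21 alternative settings, with slide as a block among them, and that of Kcnh3 did not pass without NGN3+ array 2 or 3. Kcnj10, the inward rectifier Kir4.1, differed least, with -0.40 and -0.45 at the 2 steps (adjusted p = 0.0402 each), and these calls did not pass under 13 of 21 and 10 of 20 alternatives, the first without any 1 of its 6 arrays and the second without any 1 but KIT+ array 3.

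Kcnn2 and Cacng5 were lower at the first step and were not tested at the second, since neither was detected in NGN3+ or KIT+ cells. Kcnn2, the small-conductance calcium-activated channel SK2, had levels of -2.93, -2.88 and -2.93 in GFRα1+ cells, -4.56, -4.02 and -4.13 in NGN3+ cells (2 of 3 arrays above background) and -3.81, -4.03 and -4.06 on KIT+ arrays (2 of 3). Its first-step ratio was -1.32 (SE 0.15, adjusted p = 0.000139). Cacng5, another γ subunit, had levels of -3.25, -3.86 and -3.16 in GFRα1+ cells, -4.64, -4.28 and -5.22 in NGN3+ cells (2 of 3) and -5.09, -5.74 and -4.65 on KIT+ arrays (1 of 3), with a first-step ratio of -1.29 (SE 0.34, adjusted p = 0.0111). In both genes every GFRα1+ array lay above every NGN3+ and KIT+ array.

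Summed levels of some marker lists were also lower in KIT+ than in GFRα1+ cells, though not at each step. Sums of Leydig cell and of macrophage markers, given under other observations, were lower in both later fractions. However, their genes were split at the first step. Of 3 Leydig cell genes tested there, 1 was higher in NGN3+ cells and 1 lower, and of 5 macrophage genes 2 were higher and 2 lower. In GFRα1+ cells 2 of 8 Leydig cell genes and 4 of 12 macrophage genes on the array were detected. Markers of undifferentiated spermatogonia summed to 250 to 260 in GFRα1+ cells, 169 to 261 in NGN3+ cells, 54.8 to 66.8 in KIT+ cells and 11.4 to 12.5 in whole testes. GFRα1+ and NGN3+ arrays overlapped for the sum of this list. Gene by gene the list fell at both steps. At the first step 11 of 18 tested were lower in NGN3+ cells and 4 higher (median log2 ratio -0.97). All 17 tested at the second step were lower in KIT+ cells (median -2.02), beside 16.9% of all genes tested. Pericyte markers summed to 64.5 to 93.2, 28.9 to 42.4, 27.2 to 44.9 and 11.2 to 13.0 in the same order of groups, with NGN3+ and KIT+ arrays overlapping. However, of 4 pericyte genes tested at the first step 3 were higher in NGN3+ cells and 1, Mcam, lower. Of all genes tested there, 20.1% were higher and 36.1% lower. Mcam had mean levels of 6.32 in GFRα1+ cells, 5.06 in NGN3+ cells, 5.09 in KIT+ cells and 3.32 in whole testes, while Rgs5, Abcc9, Cspg4 and Kcnj8 were above background on no GFRα1+ array. The part of these cells in the levels of the genes lower at both steps was not tested.

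**Figure D2:**
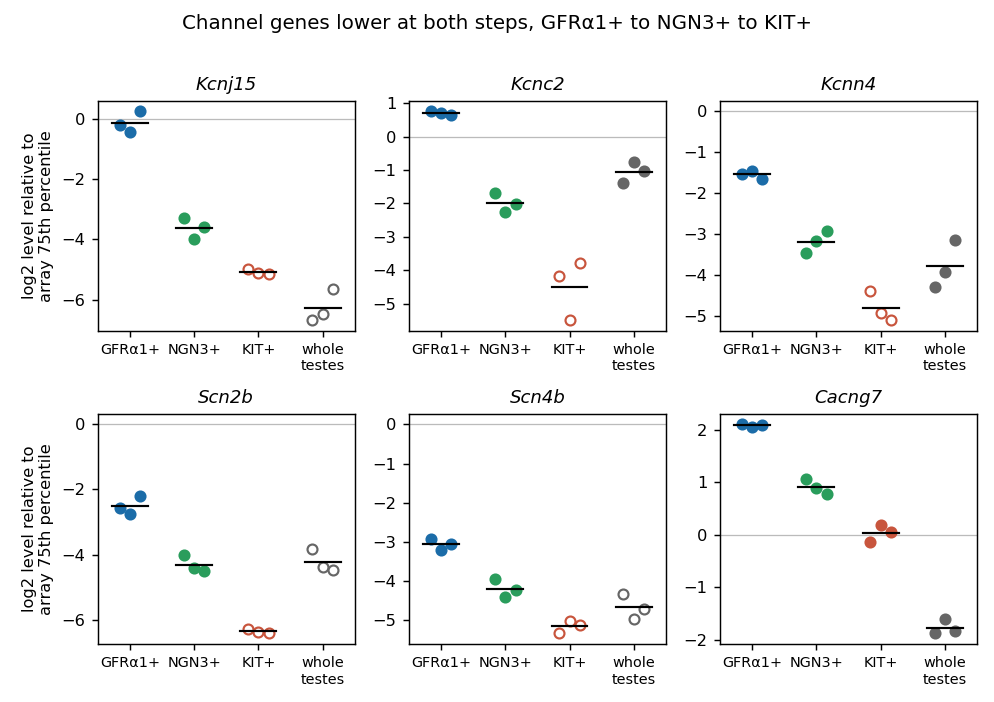
Levels of 6 of the 9 channel genes called lower at both steps, in log2 units relative to the array's 75th percentile (grey line), for the 3 arrays of each group; bars are means and open symbols mark a group not above background on all 3 arrays. GFRα1+ arrays lay above NGN3+ arrays and these above KIT+ arrays in all 6 panels, and Kcnj15 was near 0 in GFRα1+ cells alone.

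Scn2b and Scn4b encode the β subunits that are linked to the sodium channel pore by a disulfide bond, and their probes lie 24.1 kb apart (mm9, chr9:44937945-44938004 and chr9:44962045-44962104, both on the plus strand). Scn2b had levels of -2.57, -2.76 and -2.21 in GFRα1+ cells and -4.02, -4.41 and -4.51 in NGN3+ cells, and was above background on no KIT+ array and on 1 of 3 whole testes arrays. Scn4b had levels of -2.93, -3.21 and -3.05 in GFRα1+ cells and -3.94, -4.41 and -4.24 in NGN3+ cells, with the same numbers of arrays above background in the other groups. Both neighbours were thus highest in GFRα1+ cells. Scn2b was 3.48-fold lower in NGN3+ than in GFRα1+ cells (adjusted p = 5.79e-05) and at least 4.79-fold lower in KIT+ than in GFRα1+ cells. Scn4b was 2.19-fold lower (adjusted p = 0.000377) and at least 3.27-fold lower in the same comparisons. Scn3b, a β subunit detected in all 4 groups, did not pass at either step and had log2 ratios of -0.23 and 0.14 with overlapping arrays.

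The opposite of this pattern, a level that peaked in NGN3+ cells, was seen for another pair of neighbours on the same chromosome. Scn10a and Scn11a encode the pores Nav1.8 and Nav1.9, known from pain-sensing neurons for their resistance to tetrodotoxin, and their probes lie 145.3 kb apart (mm9, chr9:119517585-119517644 and chr9:119662887-119662946, both on the minus strand). To show the start sites of both pairs, the 250 bases upstream of each RefSeq start (GRCm38.p6) are printed 5′ to 3′ on the strand of the gene, with capitals at matches to CCAAT on either strand (ATTGG on the printed one).
Scn2b (chr9:45117626-45117875, plus strand): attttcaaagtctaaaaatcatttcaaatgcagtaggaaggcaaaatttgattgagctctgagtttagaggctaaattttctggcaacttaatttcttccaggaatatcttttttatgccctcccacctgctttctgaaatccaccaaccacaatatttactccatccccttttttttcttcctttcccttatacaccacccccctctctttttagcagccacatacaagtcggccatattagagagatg
Scn4b (chr9:45138374-45138623, plus strand): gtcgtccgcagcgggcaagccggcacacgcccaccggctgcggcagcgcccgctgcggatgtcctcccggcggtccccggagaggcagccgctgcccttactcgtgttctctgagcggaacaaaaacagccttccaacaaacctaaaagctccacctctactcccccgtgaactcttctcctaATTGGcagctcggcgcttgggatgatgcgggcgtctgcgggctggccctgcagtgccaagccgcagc
Scn10a (chr9:119719033-119719282, minus strand): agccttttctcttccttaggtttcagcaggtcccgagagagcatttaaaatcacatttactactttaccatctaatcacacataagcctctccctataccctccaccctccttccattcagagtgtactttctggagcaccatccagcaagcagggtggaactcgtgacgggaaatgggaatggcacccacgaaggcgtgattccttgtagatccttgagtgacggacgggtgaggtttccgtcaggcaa
Scn11a (chr9:119825457-119825706, minus strand): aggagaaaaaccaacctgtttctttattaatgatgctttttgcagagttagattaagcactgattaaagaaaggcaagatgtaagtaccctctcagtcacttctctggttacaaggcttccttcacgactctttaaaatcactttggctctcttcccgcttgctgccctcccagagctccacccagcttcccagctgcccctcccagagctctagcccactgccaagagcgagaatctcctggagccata

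The pairs differed in how alike these stretches were in composition: the GC content was 38.4% for Scn2b and 66.0% for Scn4b, and 49.6% for Scn10a and 48.0% for Scn11a, beside a median of 52.0% over 27025 promoters. Of 5 motifs searched on both strands (CAGATG, an E-box of the kind neurogenins bind, the nuclear receptor element AGGTCA, the cyclic AMP element TGACGTCA, CCAAT itself and the box TATAAA), only CCAAT was found, and only upstream of Scn4b. CCAAT was in 34.5% of all promoters and in 29 of the 100 channel genes with a promoter in the table, CAGATG in 14.5% and in 13 of 100, AGGTCA in 13.8% and in 7 of 100, TGACGTCA in 1.62% and in 0 of 100, and TATAAA in 13.0% and in 3 of 100.

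Scn10a had levels of -1.97, -1.10 and -1.75 in GFRα1+ cells, 1.31, 0.86 and 0.60 in NGN3+ cells, -2.09, -2.47 and -2.28 in KIT+ cells and -1.62, -1.40 and -0.97 in whole testes. Every NGN3+ array lay above every other array. The gene was 5.78-fold higher in NGN3+ than in GFRα1+ cells (log2 ratio 2.53, SE 0.25, adjusted p = 7.25e-05) and 9.21-fold lower in KIT+ than in NGN3+ cells (adjusted p = 5.81e-05). Scn11a had levels of -2.45, -1.96 and -1.87 in GFRα1+ cells, -0.50, -1.02 and -0.87 in NGN3+ cells, -2.52, -2.60 and -2.70 in KIT+ cells and -2.65, -2.64 and -2.82 in whole testes. Its NGN3+ arrays also stood above all others, with log2 ratios of 1.30 and -1.81 at the 2 steps (SE 0.19 each, adjusted p = 0.000531 and 0.000182).

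Kcnj12, the inward rectifier Kir2.2, and Cacnb3, a β subunit that carries calcium channel pores to the membrane, peaked in NGN3+ cells as well. Kcnj12 had levels of -2.53, -1.60 and -2.03 in GFRα1+ cells, 0.35, -0.14 and -0.39 in NGN3+ cells and -2.90, -2.61 and -3.39 on KIT+ arrays, and was above background on 1 of 3 whole testes arrays. The log2 ratio was 1.99 at the first step (SE 0.30, adjusted p = 0.00067) and -2.91 at the second (SE 0.30, adjusted p = 0.000177). Cacnb3 had levels of -0.52, -0.35 and -0.36 in GFRα1+ cells, 1.31, 0.95 and 0.77 in NGN3+ cells, -0.27, -0.11 and -0.33 in KIT+ cells and -2.61, -2.89 and -3.20 in whole testes. Its NGN3+ arrays were apart from both neighbouring stages, and all sorted arrays were above whole testes. The ratios were 1.42 and -1.25 (adjusted p = 8.78e-05 and 0.000376), and 3.91 for NGN3+ cells over whole testes, or 15.1-fold. Cacnb4, another β subunit, took the other course, with means of -1.96 ± 0.07 in GFRα1+ cells, -3.26 ± 0.10 in NGN3+ cells and -3.37 ± 0.06 on KIT+ arrays (SD, n = 3 each) and a first-step ratio of -1.30 (adjusted p = 1.38e-05).

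Kcna1, the Kv1.1 pore, and Kcnj5, the G-protein-gated inward rectifier Kir3.4, fell at the second step. Kcna1 had levels of -2.12, -2.45 and -2.67 in GFRα1+ cells, -1.50, -1.93 and -2.09 in NGN3+ cells, -4.81, -4.57 and -4.72 in KIT+ cells (2 of 3 arrays above background) and no whole testes array above background. The 3 KIT+ arrays lay below all other sorted arrays, and the second-step ratio was -2.86 (SE 0.19, adjusted p = 2.81e-05). Kcna1 was also called higher at the first step, with a ratio of 0.58 that did not pass under 7 of 21 alternatives. Kcnj5 had levels of -4.57, -3.67 and -5.16 in GFRα1+ cells (1 of 3 above background), -4.08, -3.34 and -3.88 in NGN3+ cells, and no KIT+ or whole testes array above background. It was at least 2.01-fold lower in KIT+ than in NGN3+ cells (adjusted p = 0.000364), while the first-step ratio of 0.70 did not pass (adjusted p = 0.129). Also lower in KIT+ than in NGN3+ cells were Kcnk5, the alkaline-activated channel TASK-2 (-0.98, adjusted p = 0.000595), Cacna1h, the T-type calcium channel pore Cav3.2 (-0.89, adjusted p = 0.000799), Cacng6 (-0.87, adjusted p = 0.00442) and Cacna1a, the P/Q-type pore (-0.74, adjusted p = 0.00518).

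Fewer genes were higher in KIT+ cells. Kcnd3, Kcnip3 and Kcns3 were called higher at both steps, beside 20.1% of all genes tested at the first and 17.5% at the second. The share of all genes higher at both is not given here. The products of 2 of these genes act together: Kcnd3 encodes the Kv4.3 pore, and Kcnip3 a calcium-binding protein that attaches to Kv4 channels. Kcnd3 had levels of -0.03, 0.19 and -0.01 in GFRα1+ cells, 0.78, 0.74 and 0.62 in NGN3+ cells, 1.44, 1.62 and 1.55 in KIT+ cells and -0.21, -0.51 and -0.24 in whole testes. All 4 groups were apart, with log2 ratios of 0.67 and 0.82 at the 2 steps (SE 0.11 each, adjusted p = 0.00103 and 0.000583). Kcnip3 had means of -1.58 ± 0.21 in GFRα1+ cells, -0.50 ± 0.48 in NGN3+ cells, 1.52 ± 0.17 in KIT+ cells and -0.19 ± 0.07 in whole testes (SD, n = 3 each). Its ratio was 2.02 at the second step (SE 0.23, adjusted p = 0.000334) and 1.08 at the first (adjusted p = 0.00473), which did not pass under 3 of 21 alternatives, slide as a block among them. Kcnip1, a relative of Kcnip3, was not above background on any GFRα1+ or NGN3+ array and had levels of -3.23, -3.26 and -3.47 in KIT+ cells, at least 2.76-fold above NGN3+ cells (adjusted p = 0.000187).

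Kcnj4, the inward rectifier Kir2.3, had levels of 2.31, 2.33 and 2.46 in GFRα1+ cells, 2.22, 2.25 and 2.35 in NGN3+ cells, 3.34, 3.74 and 3.48 in KIT+ cells and -1.24, -1.80 and -1.33 in whole testes. GFRα1+ and NGN3+ arrays overlapped, KIT+ arrays were above both, and whole testes far below. The second-step ratio was 1.25 (SE 0.12, adjusted p = 0.000151), and KIT+ cells were 31.5-fold above whole testes (log2 ratio 4.98, SE 0.16, adjusted p = 2.85e-09). Cacna2d3, an α2δ subunit, had means of -2.16 ± 0.23 in GFRα1+ cells, -2.22 ± 0.19 in NGN3+ cells and -1.19 ± 0.22 on KIT+ arrays (SD, n = 3 each) and a second-step ratio of 1.04 (adjusted p = 0.00181). Cacna1g, the T-type calcium channel pore Cav3.1, had levels of -3.83, -4.03 and -3.48 in NGN3+ cells, -3.15, -3.21 and -3.12 in KIT+ cells and -1.91, -1.28 and -1.57 in whole testes, and was above background on no GFRα1+ array. Its second-step ratio was 0.62 (SE 0.14, adjusted p = 0.00992). Kcnh2, the hERG channel that repolarises the heart, dipped in NGN3+ cells. Its levels were -2.60, -2.27 and -1.80 in GFRα1+ cells, -3.42, -3.29 and -3.31 in NGN3+ cells and -2.23, -1.84 and -2.07 on KIT+ arrays, with ratios of -1.12 and 1.29 (adjusted p = 0.00171 and 0.00132). It was the only channel gene called lower at the first step and higher at the second, and the share of all genes with this course is not given here.

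**Figure D3:**
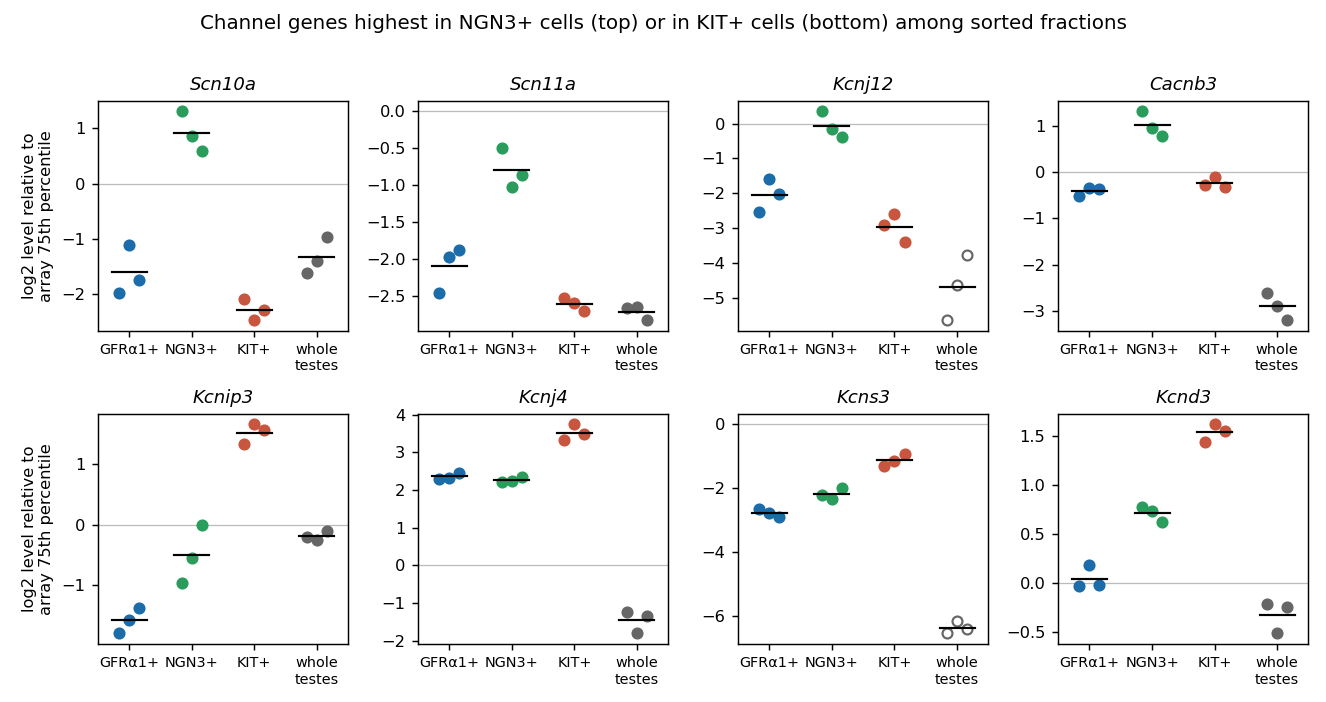
Levels of 4 channel genes highest in NGN3+ cells (top row) and 4 highest in KIT+ cells (bottom row) among sorted fractions, in log2 units relative to the array's 75th percentile, for the 3 arrays of each group; bars are means and open symbols mark a group not above background on all 3 arrays. NGN3+ arrays of Scn10a lay between 0.60 and 1.31 and all its other arrays at -0.97 or lower, and KIT+ arrays of Kcnj4 lay between 3.34 and 3.74.

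Another set of genes was low in GFRα1+ cells, higher in NGN3+ and KIT+ cells alike and highest in whole testes. Kcne3, an auxiliary subunit that keeps Kcnq1 channels open, had levels of -3.45, -3.98 and -3.37 in GFRα1+ cells (2 of 3 above background), 1.13, 2.18 and 1.71 in NGN3+ cells, 2.43, 1.59 and 2.24 in KIT+ cells and 4.97, 5.15 and 5.01 in whole testes. NGN3+ and KIT+ arrays overlapped, and GFRα1+ arrays and whole testes lay apart on either side. This was the largest first-step rise among the channel genes, 38.6-fold (log2 ratio 5.27, SE 0.31, adjusted p = 4.01e-06). The second-step ratio was 0.42 (adjusted p = 0.357), and NGN3+ cells were 10.3-fold below whole testes (log2 ratio -3.37, adjusted p = 6.78e-07).

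Another 5 genes of this kind were above background on no GFRα1+ array. NGN3+ cells were at least 5.02-fold above GFRα1+ cells for Kcnip2, a Kv4 partner (adjusted p = 0.00116), at least 3.39-fold for Kcnj9, the G-protein-gated rectifier Kir3.3 (adjusted p = 0.000382), and at least 3.05-fold for the silent subunit Kcng1 (adjusted p = 0.00133). For Kcnk7, a two-pore-domain protein not known to carry current, and Kcnmb3, a β subunit of the large-conductance BK channel, NGN3+ cells were at least 1.42-fold above GFRα1+ cells. The adjusted p-values of 8.28e-05 and 2.62e-06 are for their fitted log2 ratios of 2.74 and 2.54, not for the bounds. The ratio of Kcnmb3 was 0.14 after normexp (adjusted p = 0.305). In none of the 5 did KIT+ and NGN3+ cells differ past the threshold (ratios of -0.47 to 0.37), and in all of them NGN3+ cells were below whole testes, by 2.61 to 3.82 on the log2 scale. Kcnj9 shows the spread within NGN3+ cells, with -3.18, -2.36 and -1.31, beside 1.40, 1.64 and 1.56 in whole testes.

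Cacna1s and Kcnu1, detected in all groups, also had their lowest levels in GFRα1+ cells and their highest in whole testes. Cacna1s, the calcium channel pore of skeletal muscle, had levels of -2.15, -2.27 and -1.95 in GFRα1+ cells, -0.90, -0.22 and -0.08 in NGN3+ cells, 0.20, -0.08 and -0.03 in KIT+ cells and 2.51, 2.92 and 2.60 in whole testes. Its first-step ratio was 1.72 (SE 0.21, adjusted p = 0.000229), and NGN3+ cells were 8.45-fold below whole testes. Kcnu1 encodes Slo3, the alkaline-sensitive potassium channel found in sperm. Its levels were -0.94, -0.52 and -0.79 in GFRα1+ cells, 0.44, 0.68 and 0.48 in NGN3+ cells, 0.18, -0.47 and -0.07 in KIT+ cells and 2.72, 2.99 and 2.98 in whole testes, with a first-step ratio of 1.28 (adjusted p = 0.000514). Its second-step ratio of -0.65 (adjusted p = 0.0233) did not pass without KIT+ array 2 or 3 or NGN3+ array 2.

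All 20 spermatid marker genes moved at the same step and in the same direction as these channel genes. Between NGN3+ and GFRα1+ cells all 20 were called higher, with a median log2 ratio of 5.39, and Acrv1 and Txndc8 were above background on no GFRα1+ array. Between KIT+ and NGN3+ cells none of the 20 was called by limma (median 0.41), and NGN3+ cells were below whole testes for all 20 (median -3.60). Among the listed markers of Sertoli cells 12 of 17 tested and of myoid cells 7 of 8 were also higher in NGN3+ than in GFRα1+ cells. Of all genes tested there, 20.1% were higher. The Sertoli genes Amh and Fshr were above background on no array of either fraction, but Amh was above background on no whole testes array either. The part of these cell types in the levels of Kcne3, Kcnip2, Kcnj9, Kcng1, Kcnk7, Kcnmb3, Cacna1s and Kcnu1 was not tested.

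**Figure D4:**
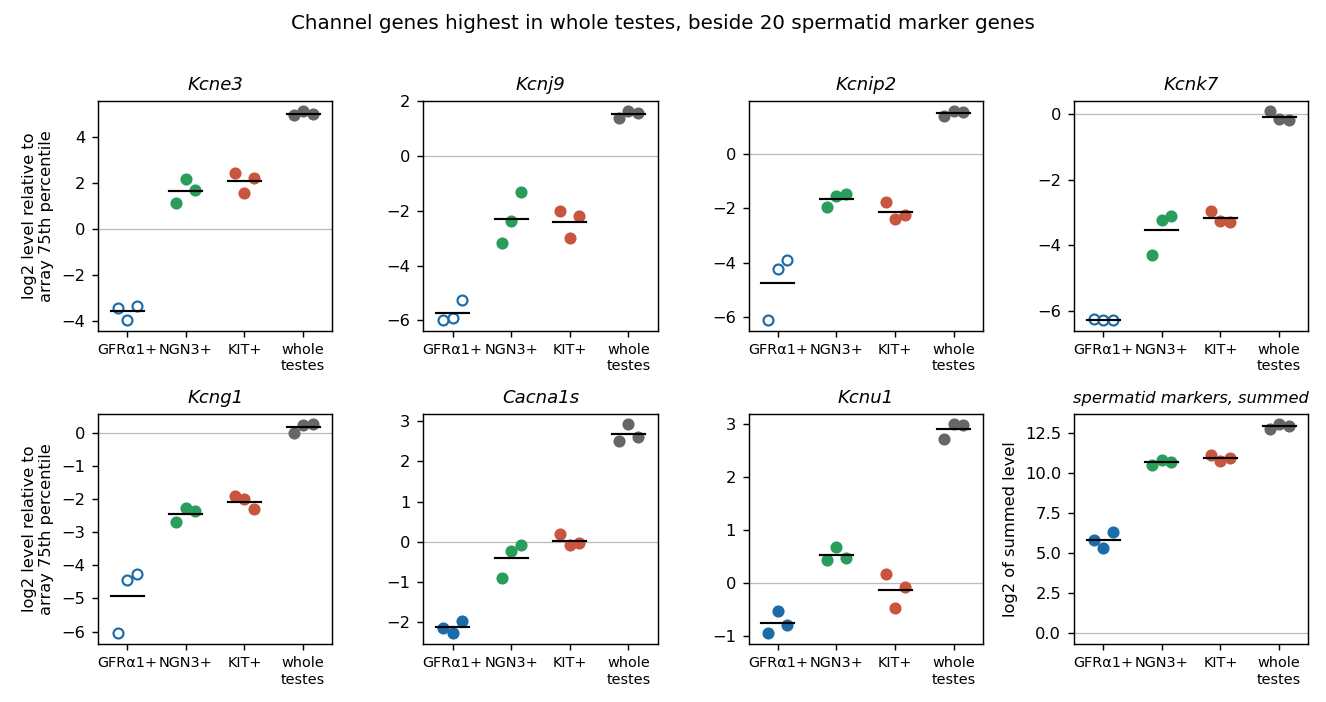
Levels of 7 channel genes highest in whole testes, in log2 units relative to the array's 75th percentile, for the 3 arrays of each group, and in the last panel log2 of the summed level of 20 spermatid marker genes; bars are means and open symbols mark a group not above background on all 3 arrays. In every panel GFRα1+ arrays were lowest and whole testes highest, with NGN3+ and KIT+ arrays between them.

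Set against whole testes, most channel genes differed, as did most genes. In GFRα1+ cells 40 were higher and 38 lower of 93 tested, beside 87.3% called among all genes tested (49.9% higher and 37.5% lower). In NGN3+ cells 39 were higher and 41 lower of 97, beside 83.7% (44.1% higher and 39.6% lower). In KIT+ cells 29 were higher and 42 lower of 94, beside 84.8% (43.2% higher and 41.6% lower). Arrays did not overlap for 78, 78 and 73 channel genes, beside 87.3%, 86.5% and 87.8% of all genes tested. The median log2 ratio of channel genes was -0.18, -0.04 and -0.21, beside 0.39, 0.13 and 0.06 for all genes tested. The 3 comparisons share the whole testes arrays. GFRα1+ arrays 1 and 2 share a slide with 1 whole testes array, and on that slide, where the spread comes from the 2 GFRα1+ arrays alone, 79 of 103 channel genes were called, beside 78.1% of all genes. NGN3+ and KIT+ arrays share no slide, as set by scan date, with whole testes, so in their direct comparison slide and sample cannot be told apart.

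Several potassium channel genes were far higher in a sorted fraction than in whole testes. Kcnab3, an auxiliary subunit of Kv1 channels, had levels of 2.03, 2.06 and 2.15 in GFRα1+ cells, 0.86, 0.59 and 0.83 in NGN3+ cells, 0.76, 1.06 and 0.77 in KIT+ cells and -1.30, -1.33 and -1.41 in whole testes. GFRα1+ cells were 10.8-fold above whole testes (log2 ratio 3.43, SE 0.12, adjusted p = 4.27e-10), and NGN3+ cells 2.50-fold below GFRα1+ cells (adjusted p = 4.86e-05). Kcna1 was at least 5.92-fold higher in NGN3+ cells than in whole testes. Kcnj12 was 24.6-fold higher in NGN3+ cells than in whole testes (log2 ratio 4.62, SE 0.43, adjusted p = 1.37e-06), with 1 of 3 whole testes arrays above background. Of the γ subunits, Cacng4 was detected in all sorted fractions, with means of -1.97 ± 0.26 in GFRα1+ cells, -3.15 ± 0.15 in NGN3+ cells and -2.96 ± 0.08 on KIT+ arrays (SD, n = 3 each), and was above background on no whole testes array.

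The silent Kv subunits, taken here as a whole class after their values were seen, were split between the 2 kinds of sample. Kcns1, Kcns3, Kcnv2 and Kcng3 were higher in every sorted fraction than in whole testes. Kcns1 had levels of 0.59, 0.65 and 0.81 in GFRα1+ cells, 0.97, 0.78 and 0.67 in NGN3+ cells, 0.21, 0.40 and 0.37 in KIT+ cells and -3.77, -4.73 and -3.45 in whole testes (2 of 3 above background). Its log2 ratio over whole testes was 4.67 in GFRα1+ cells, 4.79 in NGN3+ cells and 4.31 on KIT+ arrays (SE 0.26 each, adjusted p = 1.31e-08, 2.39e-08 and 4.95e-08). The other 3 were above background on no whole testes array.

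Kcns3 had levels of -2.65, -2.77 and -2.90 in GFRα1+ cells, -2.20, -2.34 and -1.98 in NGN3+ cells and -1.31, -1.13 and -0.93 on KIT+ arrays, apart at each step. The ratios were 0.60 and 1.05 (SE 0.14 each, adjusted p = 0.00673 and 0.00069), and KIT+ cells were at least 9.73-fold above whole testes (adjusted p = 2.72e-09). Kcnv2, a subunit known from photoreceptors, was at least 4.36-fold higher in GFRα1+ cells, at least 5.14-fold in NGN3+ cells and at least 4.15-fold in KIT+ cells than in whole testes, and Kcng3 at least 2.38-fold, 2.87-fold and 2.89-fold. Neither passed at a step between sorted fractions.

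Kcng1, Kcng4 and Kcnf1 were higher in whole testes. Kcng1 was above background on no GFRα1+ array and had -2.70, -2.27 and -2.34 in NGN3+ cells, -1.90, -2.00 and -2.30 in KIT+ cells and 0.01, 0.24 and 0.27 in whole testes. Kcng4 was 5.84-fold lower in NGN3+ cells than in whole testes, and Kcnf1 was detected in whole testes alone. Of the remaining 3, Kcng2 was 2.91-fold lower in KIT+ than in NGN3+ cells (adjusted p = 0.00154), Kcns2 was detected in NGN3+ and KIT+ cells alone and passed at neither step, and Kcnv1 was above background on no array.

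**Figure D5:**
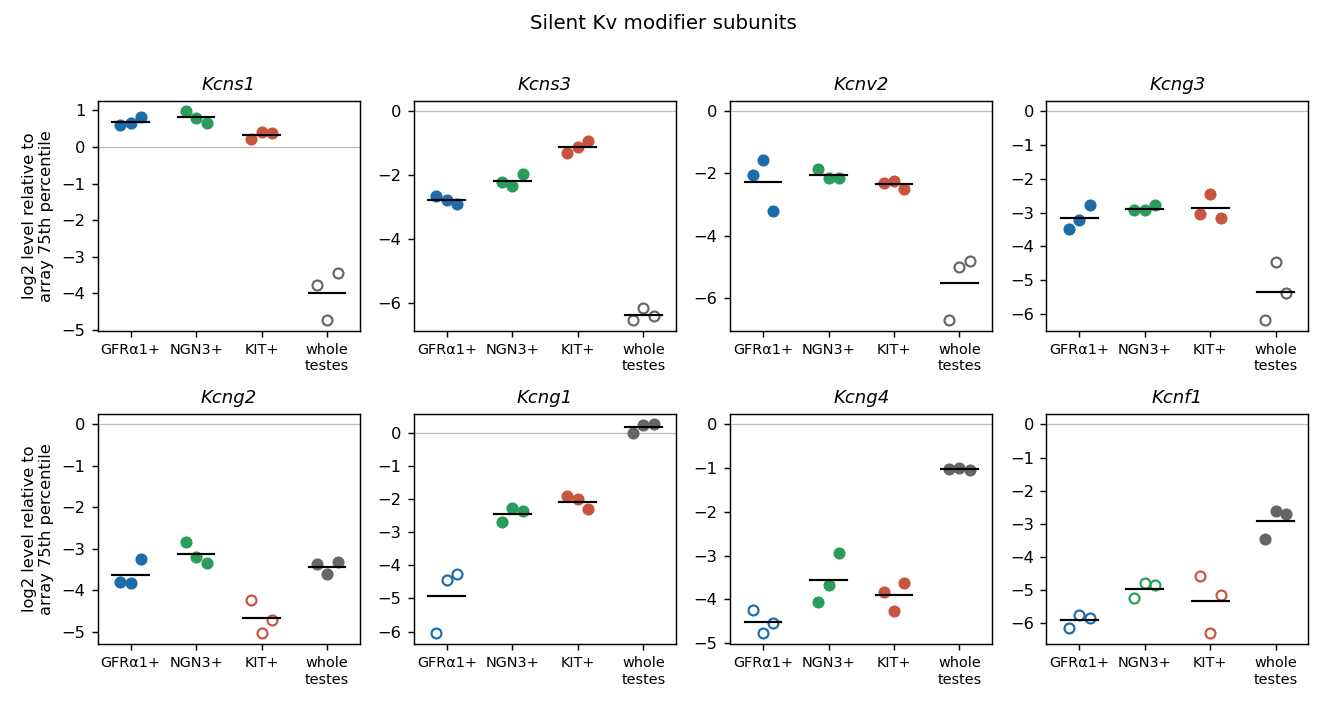
Levels of 8 silent Kv subunits in log2 units relative to the array's 75th percentile, for the 3 arrays of each group; bars are means and open symbols mark a group not above background on all 3 arrays. Kcns1, Kcns3, Kcnv2 and Kcng3 lay lower in whole testes than on any sorted array, and Kcng1, Kcng4 and Kcnf1 lay higher.

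Whole testes alone held 12 detected channel genes: Kcnip4, Kcnj6, Scn7a, Scn1a, Kcnn3, Kcnh8, Kcnk2, Kcnk12, Kcnk15, Kcnf1, Kcne4 and Cacng8, of which Kcne4, Kcnip4, Kcnj6 and Scn7a were named by rule and the others after their values were seen. Kcnip4, a Kv4 partner, had levels of 0.27, 0.51 and 0.42 in whole testes and was above background on no GFRα1+ array, which makes GFRα1+ cells at least 21.8-fold lower (adjusted p = 7.19e-08). It was above background on 2 of 3 NGN3+ arrays and 2 of 3 KIT+ arrays, and was 25.4-fold and 24.1-fold lower there than in whole testes. Kcne4, an inhibitory partner of Kcnq1, had -3.35, -3.38 and -3.63 in whole testes, and NGN3+ cells were at least 2.81-fold lower (adjusted p = 4.89e-06). Kcnj6, the G-protein-gated rectifier Kir3.2, had -0.92, -0.77 and -0.74 in whole testes, and GFRα1+ cells were at least 9.42-fold lower (adjusted p = 6.5e-10). Scn7a, a sodium sensor rather than a voltage-gated pore, had -0.78, -0.66 and -0.23 in whole testes, and NGN3+ cells were at least 19.3-fold lower (adjusted p = 4.4e-06).

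Neighbouring channel genes did not always follow each other. Within 250 kb, measured between lead probes in mm9, 26 pairs of channel genes were found among 37 genes. Kcnj9 and Kcnj10 lie 51.8 kb apart on chromosome 1, and Kcnj9 was higher in whole testes than in every sorted fraction while Kcnj10 was lower, above background on no whole testes array. NGN3+ cells had -3.82 over whole testes for Kcnj9 (adjusted p = 5.77e-06) and were at least 3.55-fold higher for Kcnj10 (adjusted p = 1.16e-05). Cacng7 and Cacng6, 67.8 kb apart on chromosome 7, were both higher in sorted cells, by 3.86 and 2.18 in GFRα1+ cells over whole testes, and Cacng8 between them was detected in whole testes alone.

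Kcnq1 and Kcnq1ot1 moved in opposite directions. Kcnq1, a potassium channel pore of heart and epithelia, had levels of -2.19, -2.01 and -2.72 in GFRα1+ cells, -2.09, -3.20 and -3.35 in NGN3+ cells and -3.86, -4.04 and -4.17 on KIT+ arrays. Kcnq1ot1, the noncoding RNA that silences neighbouring imprinted genes from the paternal copy, had -1.72, -2.84 and -1.75 in GFRα1+ cells, -1.40, -1.41 and -0.67 in NGN3+ cells and -0.42, -0.45 and 0.02 on KIT+ arrays. Over both steps the log2 ratio for KIT+ over GFRα1+ cells was -1.72 for Kcnq1 (SE 0.33, adjusted p = 0.00164) and 1.82 for Kcnq1ot1 (SE 0.33, adjusted p = 0.0013). The NGN3+ arrays of Kcnq1 overlapped with GFRα1+ arrays, and its second-step call (-1.15, adjusted p = 0.0252) did not pass without KIT+ array 2 or 3. The first-step call of Kcnq1ot1 (0.94, adjusted p = 0.0381) did not pass without GFRα1+ array 2 or any 1 NGN3+ array.

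Of the other channel genes detected in every group, Cacna1h had means of 2.54 ± 0.19 in GFRα1+ cells, 2.82 ± 0.05 in NGN3+ cells, 1.93 ± 0.12 in KIT+ cells and 3.36 ± 0.03 in whole testes (SD, n = 3 each). Cacna2d2, an α2δ subunit, did not pass at the first step (ratio 0.07, adjusted p = 0.74), and its second-step rise of 0.50 (adjusted p = 0.0464) did not pass when any 1 of the 6 arrays was left out. Kcnmb4, a BK channel β subunit, had means of 1.54 ± 0.18 in GFRα1+ cells, 2.15 ± 0.03 in NGN3+ cells, 1.73 ± 0.10 in KIT+ cells and 4.19 ± 0.16 in whole testes (SD, n = 3 each), with a first-step ratio of 0.61 (adjusted p = 0.00232). Kcna4, the Kv1.4 pore, and Scn8a, the sodium channel pore Nav1.6, were above whole testes in each sorted fraction, by 2.93, 2.10 and 2.23 for Kcna4 and by 2.36, 1.44 and 1.46 for Scn8a in GFRα1+, NGN3+ and KIT+ cells. In both genes 1 GFRα1+ array overlapped with NGN3+ arrays, and a second probe of Scn8a gave a first-step ratio of 0.79, against -0.92 for the lead probe, so its direction at this step is not settled.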

How the data were processed

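The authors hybridised Cy3-labelled RNA of 12 samples to 1-colour Agilent mouse arrays (mm9 design) and deposited the scanner's processed intensity of each spot, made by Feature Extraction 10.7.3.1 per the submitters' notes. Per the file headers, version 10.7.1.1 was used for 7 arrays (GFRα1+ array 3 and all NGN3+ and KIT+ arrays) and 10.7.3.1 for the other 5, so the version follows the slide as set by scan date. The deposited series table held log2 values that matched the scanner intensity within 0.01 once scaled, so both carry the same scale. It served as an alternative, but for that reason could hardly give other calls. Here, control spots and spots flagged as outliers were left out, spots of a probe were averaged, and log2 of the processed intensity was taken minus each array's 75th percentile. Each gene was read from its brightest probe on average over the 12 arrays, and names were updated through RefSeq tables (GRCm38.p6), which also gave the promoters.

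Groups were compared with limma 3.58.1 in R 4.3.3 and Benjamini-Hochberg adjustment over all genes tested, at an adjusted p under 0.05, with 9 arrays in the fit for comparisons between sorted fractions and 12 for those with whole testes. Genes entered a test if all 3 arrays of either group had the probe well above background. Nothing in the labels says that a number links samples of different groups. The fit was tested on simulated data. P-values measure the spread between these samples, which within each sorted fraction came from different animals. Whether samples of different groups shared animals, and how many mice gave each whole testes sample, is not stated. Since 3 arrays against 3 allow no exact permutation p below 0.1, no such test was used.

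Array values or means are given for the 8 genes with the largest rise and the 8 with the largest fall in each comparison between sorted fractions, and 6 each against whole testes, among called genes whose groups did not overlap. Genes above background on all 12 arrays may be named too. Other names were chosen after their values were seen. Single results of some genes are not reported here, though the counts include them. The members, the classes and the marker lists (12 cell types and related ion transport genes) were chosen with earlier results of these data known.

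Alternatives were quantile normalization, a percentile over detected probes, normexp (offset 50), other filters, probes and sets of arrays, slide and replicate blocks, the methods' t-test and leaving out each array.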

Additional observations from a re-analysis of the deposited data

How the results depend on the processing

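The totals of channel genes called, higher and lower together, kept within 1.5 times of those reported, except that testing only genes above background on every array of both groups gave 37 for GFRα1+ cells, 47 for NGN3+ cells and 40 for KIT+ cells over whole testes, since fewer genes were tested. Of all genes tested under that filter, 86.9%, 84.5% and 84.9% were called in the same order. Without 1 array in turn, 39 to 52 were called for NGN3+ over GFRα1+ cells, 30 to 35 for KIT+ over NGN3+ cells, 49 to 61 for KIT+ over GFRα1+ cells, and 76 to 81, 76 to 78 and 68 to 74 for GFRα1+, NGN3+ and KIT+ cells over whole testes. Among all genes the shares called were 42.7% to 56.5%, 25.1% to 31.7%, 57.6% to 66.6%, 85.0% to 87.5%, 80.4% to 82.1% and 81.0% to 83.5%. By direction, the 24 lower calls of NGN3+ over GFRα1+ cells were 37 after normexp, 14 with slide as a block, 15 on the second slide and 15 without NGN3+ array 2, and the 27 higher calls were 16 under that stricter detection. Among all genes tested in that comparison, the share called lower was 36.1% as reported, 42.2% after normexp and 23.3% with slide as a block. The share called higher was 20.1% as reported and 13.6% under the stricter detection. With the replicate block, 48, 35, 56, 78, 78 and 72 channel genes were called in the order of the 6 comparisons above. Of all genes tested, 52.0%, 29.3%, 62.2%, 86.7%, 83.0% and 84.3% were called. The correlations of same-numbered arrays ran from -0.58 to 0.29. With 3 arrays in a group they cannot show whether same-numbered arrays share animals or preparations. Slide as a block gave 37, 49, 73, 69 and 61 for the 5 comparisons that span slides, beside 38.9%, 52.6%, 83.5%, 69.6% and 70.6% of all genes. The methods' t-test gave 35, 32, 47, 72, 74 and 66 after Benjamini-Hochberg adjustment, beside 43.7%, 29.8%, 58.0%, 83.1%, 81.3% and 83.1% of all genes. Of the calls, 28 of 51, 28 of 38, 36 of 59, 64 of 78, 57 of 80 and 52 of 71 were kept under every alternative. The ratio of Kcnmb3 for KIT+ over GFRα1+ cells was -0.000681 after normexp (limma adjusted p = 0.996), and the cause was not tested. Its NGN3+ over GFRα1+ ratio was 0.14 there (adjusted p = 0.305), that of Kcnip1 for KIT+ over GFRα1+ cells was 0.23 (adjusted p = 0.0728), and Cacna1g for KIT+ over NGN3+ cells gave 0.62 with the methods' t-test (adjusted p = 0.058 by that test over 3 against 3 arrays, not an exact test). The median of all genes moved by -0.41 for GFRα1+ cells over whole testes and by 0.17 for NGN3+ over GFRα1+ cells when the percentile was taken over detected probes. Signal over background limits 34 channel genes, which were not above background on all 3 arrays of any group.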

Other observations

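Related ion transport genes outside the rule were read from a list of 46, of which 44 were on the array. Between NGN3+ and GFRα1+ cells 21 of 31 tested were higher and 3 lower, with a median log2 ratio of 1.07. Among all genes tested 20.1% were higher and 36.1% lower, with a median of -0.19. Between KIT+ and NGN3+ cells 4 of 32 were higher and 4 lower, beside 17.5% and 16.9% of all genes tested. Catsper1, a pore subunit of the sperm calcium channel CatSper, had mean levels of -4.04 in GFRα1+ cells, 1.16 in NGN3+ cells, 1.56 in KIT+ cells and 4.77 in whole testes, and Atp1a4, the sodium pump subunit of sperm, had -1.40, 4.39, 4.82 and 8.09 in that order. Catsper1 is also among the spermatid markers. The part of spermatids in these levels was not tested.

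Summed levels of other marker lists also differed between fractions. Spermatocyte markers summed to 32.2 to 35.0 in GFRα1+ cells, 132 to 222 in NGN3+ cells, 177 to 258 in KIT+ cells and 1095 to 1195 in whole testes. Those of differentiating spermatogonia summed to 196 to 211, 168 to 198, 308 to 368 and 53.1 to 54.7 in that order, of Sertoli cells to 34.3 to 48.5, 44.1 to 57.7, 41.3 to 47.1 and 214 to 251, and of myoid cells to 5.66 to 6.84, 18.8 to 32.3, 19.0 to 23.7 and 169 to 193. Leydig cell markers summed to 6.40 to 11.2, 3.49 to 4.93, 4.67 to 4.76 and 27.5 to 34.2, with Hsd3b1, Hsd3b6, Cyp11a1, Lhcgr and Hsd17b3 above background on no sorted array. Endothelial markers summed to 28.5 to 31.5, 20.1 to 27.5, 25.0 to 29.7 and 32.4 to 41.8, and those of macrophages and leukocytes to 2.73 to 3.51, 1.64 to 2.17, 1.62 to 1.87 and 5.57 to 6.28. Red blood cell markers summed to 0.296 to 0.345, 0.562 to 0.928, 0.756 to 3.25 and 24.6 to 32.5, and those of Schwann cells and neurons to 15.3 to 18.6, 13.3 to 18.3, 10.3 to 14.9 and up to 77.5.

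Single arrays stood apart for 2 channel genes. Kcna2, the Kv1.2 pore, was at -0.91 on KIT+ array 2, beside -7.02 and -6.97 on the other KIT+ arrays. Kcnh5, a Kv10 pore, was at -2.13 on GFRα1+ array 2, beside -5.80 and -5.77 on the other GFRα1+ arrays. Neither gene was tested between sorted fractions.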
